A study of Mus musculus with 31 samples.

Results

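The hippocampal response to injection of a control vector was compared between 2 days and 5 days after surgery, in 8 of the 31 mice of the series. The 8 mice were those labelled rAAV-hSyn-mCherry at 2d or 5d, 4 on each day, and the library column of each was matched to its label. All were adult OT-I/Rag-/- mice, which carry a transgenic T cell receptor for an ovalbumin peptide on H-2Kb and, lacking Rag1, make no T or B cells with receptors of their own. The vector expressed the fluorescent protein mCherry from the neuronal hSyn promoter and no ovalbumin, and went into the dorsal CA1 region on both sides. Ketoprofen, an anti-inflammatory analgesic, was given before surgery and on the first days after it, so that the day 2 mice were sampled during that treatment and the day 5 mice after it. The left hippocampus was sequenced as bulk tissue. No uninjected mouse was analysed here, so both groups were measured after surgery, and needle track, vector and analgesic cannot be told apart.

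At day 2 the mice D740 and D743 belonged to batch 1 and BEC-B544 and BEC-R385 to batch 2. At day 5 all 4 mice (D723, D724, D745 and D755) belonged to batch 1. Values of a gene are given in these orders. Nothing in the labels says whether mice shared a litter or a surgery day. Totals ran from 20798247 to 31866682 counts at day 2 and from 24923277 to 57407902 at day 5, and D755 held the highest total. The mouse D743 stood apart in 2 ways, the first of them before any comparison. Its Y-linked Ddx3y was at 0.127 CPM, against 28.7 to 35.7 CPM in the other 7 mice, and the labels state no sex. Whether this mouse differs in sex or is mislabelled was not tested. It also had the highest value of the 4 day 2 mice for 170 of the 223 genes that were lower at day 5. The others were highest for 20 (D740), 31 (BEC-R385) and 2 (BEC-B544). These genes were called in a fit that held D743, which favours genes high in it, and the share over all genes is not given.

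Pushing a needle and a viral suspension into the brain starts a stereotyped response. Resident microglia and astrocytes become reactive, monocytes and neutrophils enter from the blood along the track, cytokines that act through STAT3 induce acute phase genes, and microglia and other glia divide. Sensing of the vector or of damaged cells can add an interferon response. Neutrophils usually come and go first, monocytes become macrophages in the tissue, and astrocyte reactivity lasts longest. The comparison of day 2 with day 5 shows which of these signatures were lower by day 5.

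Markers matched the labelled tissue. Camk2a, of excitatory neurons, was at 3946 to 6184 CPM, Neurod6, of pyramidal cells, at 132 to 258 CPM, and Prox1, of dentate granule cells, at 86.7 to 144 CPM. CPM are counts scaled to 1000000 per library after TMM normalization. Ttr, a choroid plexus gene, was at 1920, 1784, 1695 and 566 CPM at day 2 and at 98.1, 3515, 81.0 and 19.4 CPM at day 5, a wide spread within and between the days. All 14 choroid plexus genes listed had a Log2FC below 0, with a median of -1.13 (-1.01 without D743), as low as in some response lists described here. Of them 0 were DEGs, with summed levels of 1164 to 3091 CPM at day 2 and 263 to 5853 CPM at day 5.

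Most DEGs were lower at day 5. By the quasi-likelihood test of edgeR, 223 of 15648 genes were lower at day 5 and 20 were higher, with the limits for a differentially expressed gene (DEG) set at FDR 0.05 and at 0.66 for the size of Log2FC. These are 1.43% and 0.128% of the genes tested, and the background against which each count below is read. Log2FC is day 5 minus day 2 throughout, and FDR the Benjamini-Hochberg adjusted p over all genes. SE is an approximate standard error, the size of Log2FC divided by the square root of the F statistic. The genes whose 4 values at one day lay entirely below the 4 of the other made up 5.06% (792 genes, lower at day 5) and 5.43% (850 genes, higher), and of the DEGs 215 of 243 did not overlap. The imbalance held only near the DEG limits: at FDR 0.05 alone 231 genes were lower and 67 higher, and at an unadjusted p under 0.05 there were 1457 lower and 1465 higher. The median Log2FC over all genes was 0.03. A Log2FC under -2 was found for 97 of the DEGs, and the largest rise was 1.92.

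**Figure D1:**
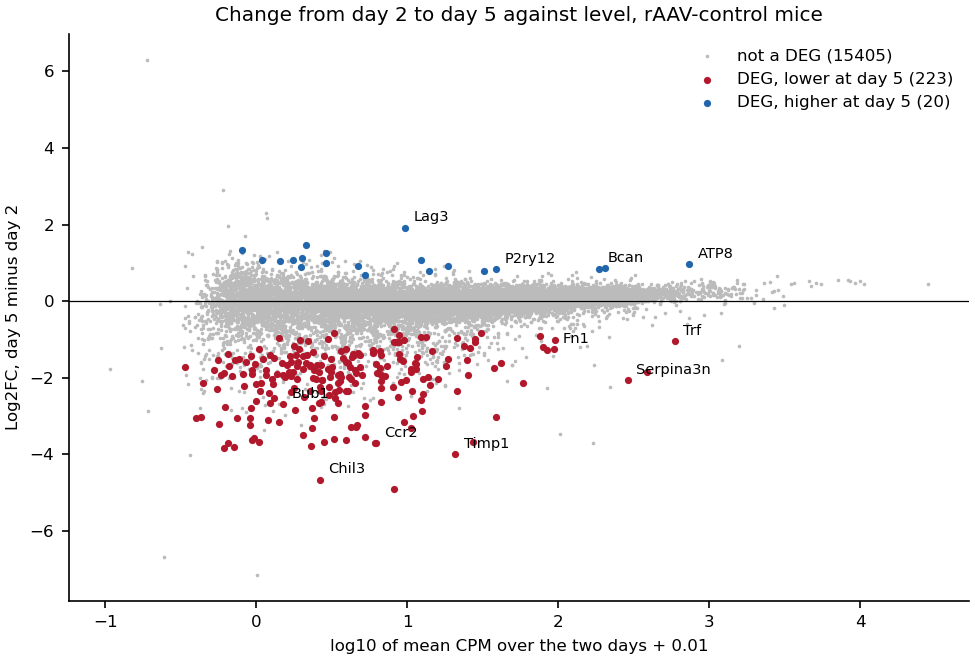
Each point is 1 of 15648 genes, with the log10 of its mean CPM over both days (plus 0.01) on the x axis and its Log2FC, day 5 minus day 2, on the y axis. The 223 red DEGs, among them Chil3 at -4.66, lie mostly among genes of low and middle level, and the 20 blue DEGs reach 1.92 (Lag3).

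The count of DEGs depended strongly on single mice and on the model. The directions of the named DEGs did so far less, but these genes were chosen as DEGs in the same mice. Without D743 there were 70 DEGs, of which 63 lower and 5 higher ones were among the 243. Without D723 only Chil3 and Cenpf remained. With no surrogate variables a fit of the 8 mice alone gave 211 DEGs, of which 144 were among the 243. The same model in the fit of the whole series gave 11. With the batch label as covariate, which day partly shares, there were 2. Counts of DEGs below carry this limit. Of the 53 DEGs named here, 20 were DEGs without D743 too, and 33 were not. The former were Chil3, Timp1, Dpep2, Sirpb1c, Ccr2, Msr1, Mki67, Top2a, Bub1, Ccnb2, Ifi27l2a, Ccr1, C5ar1, Atf3, Serpina3n, Kcnj14, ATP8, Gucy2e, Bcan and ND6.

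Genes of monocytes and macrophages were lower at day 5 in part. Of 24 tested of 25 listed, 10 were lower at day 5, 0 were higher and 14 did not pass, with a median Log2FC of -1.46 over the list, or -1.14 with 2 DEGs without D743. Bulk tissue does not tell fewer cells of a type from less RNA in each cell, here or in any result that follows. Ccr2, the chemokine receptor that brings inflammatory monocytes into tissue, was at 8.48, 13.1, 12.2 and 11.9 CPM at day 2 and at 0.358, 1.24, 0.816 and 1.06 CPM at day 5 (Log2FC -3.71, SE 0.61, FDR 0.00739). Its day 2 values were close together in both batches, and all lay above those of day 5. Chil3, or Ym1, a secreted protein of alternatively activated macrophages and neutrophils, was at 3.28, 11.2, 3.29 and 2.60 CPM at day 2 and at 0.134, 0.256, 0.0371 and 0.341 CPM at day 5 (Log2FC -4.66, SE 0.55, FDR 0.000165). Without D743 its Log2FC was -4.06 and without D755 -5.37, and it was a DEG in both.

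Fcgr4, an activating receptor for IgG, was at 7.96, 11.3, 3.14 and 5.07 CPM at day 2 and at 0.358, 2.08, 0.890 and 1.6 CPM at day 5 (Log2FC -2.36, SE 0.57, FDR 0.0297). Lyz2, lysozyme, among the highest of the list, was at 296, 881, 132 and 203 CPM at day 2 and at 14.9, 32.9, 46.0 and 158 CPM at day 5 (Log2FC -2.24, SE 0.76, FDR 0.114), and D755 overlapped with day 2. Its Log2FC was -1.39 without D743 and -3.62 without D755. Fn1, fibronectin, made by macrophages and by vessels, was at 87.7, 188, 98.0 and 157 CPM at day 2 and at 51.6, 66.6, 48.4 and 58.1 CPM at day 5 (Log2FC -1.25, SE 0.27, FDR 0.0189). Its values did not overlap. Ly6c2, another monocyte marker, was at 1.01 to 2.97 CPM at day 2 and at 0.0895 to 2.30 CPM at day 5, and did not pass (FDR 0.31).

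Other genes were among those with the lowest Log2FC. Msr1, a scavenger receptor of macrophages, was at 7.21, 29.1, 2.70 and 7.22 CPM at day 2 and at 0.313, 0.767, 0.594 and 1.36 CPM at day 5 (Log2FC -3.69, SE 0.62, FDR 0.00739). Tgm1, a transglutaminase, was at 14.9, 123, 12.7 and 53.5 CPM at day 2 and at 0.671, 8.51, 1.71 and 4.74 CPM at day 5 (Log2FC -3.67, SE 0.84, FDR 0.0222). Both were highest in D743, and neither group overlapped with the other. Without D743 Msr1 was at a Log2FC of -2.71 and still a DEG, and Tgm1 at -2.87 and no DEG. Dpep2, a dipeptidase, fell by 3.80 on the log2 scale, Zc3h12d, of a family of RNA-degrading proteins, by 3.70, and the paired immunoglobulin-like receptor genes Sirpb1a, Sirpb1c and Lilrb4b by 3.84, 3.78 and 3.61, all with day 5 levels of at most 0.556 CPM. The Sirpb1 and Lilrb4 genes have near-identical copies between which reads are divided by probability, so the value of a single member is uncertain. Of these 5 genes, Sirpb1a, Zc3h12d and Lilrb4b were no DEGs without D743, at -3.21, -3.02 and -2.97. Without D755 Msr1, Sirpb1c, Zc3h12d and Lilrb4b were at -4.41, -4.80, -4.57 and -4.56.

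**Figure D2:**
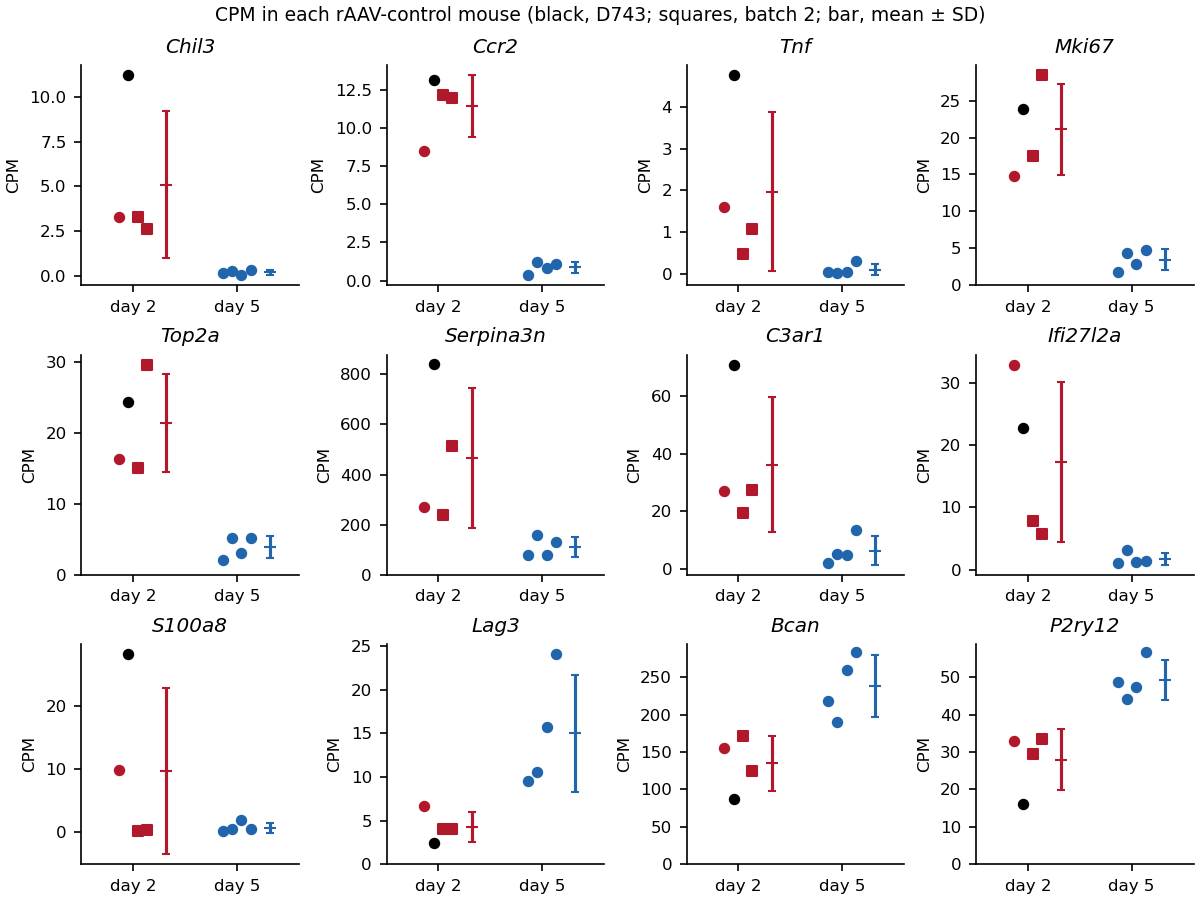
Each panel shows the CPM of 1 gene (y axis) in the 4 mice of each day (x axis), with D743 in black, batch 2 as squares, and bars for mean ± SD. Ccr2, Mki67 and Top2a are separated in both batches, S100a8 is high in D740 and D743 only, and Lag3, Bcan and P2ry12 are higher in the 4 day 5 mice.

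Neutrophil genes were near the limit of the table, with 4 of 15 listed genes tested. S100a8, a calcium-binding protein that neutrophils hold in large amounts, was at 9.93, 28.3, 0.237 and 0.451 CPM at day 2 and at 0.179, 0.475, 1.93 and 0.520 CPM at day 5 (Log2FC -3.56, SE 0.89, FDR 0.0387). Without D743 its Log2FC was -0.84 and it was no DEG. It was high in both day 2 mice of batch 1 and no higher in those of batch 2 than at day 5. S100a8 was the only DEG of the 4, which had a median of -1.07, or -0.31 without D743, and whose summed level was 16.3 to 72.4 CPM at day 2 and 8.05 to 21 CPM at day 5. The most abundant of the 4, Csf3r, the receptor for granulocyte colony-stimulating factor and a microglial gene as well, was at 12.4 to 26.4 and 5.01 to 16.4 CPM (FDR 0.399).

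T cell genes did not pass. Of 20 listed, 8 were tested, 0 were DEGs, and their summed level was 8.56 to 12.9 CPM at day 2 and 6.64 to 11 CPM at day 5. Cd8a, the co-receptor of cytotoxic T cells such as those of OT-I mice, was at 0.207 to 0.590 CPM at day 2 and 0.108 to 1.35 CPM at day 5 (Log2FC 0.19, SE 0.93, FDR 0.933).

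Cell cycle genes made up the largest group of DEGs. All 40 listed were tested, 26 were lower at day 5 (65%, against 1.43% of all genes), 0 were higher and 14 did not pass, with a median Log2FC of -1.55. Without D743 the median was -1.43 with 16 DEGs, and without D723 the list had 1 DEG. In the 2 day 2 mice of batch 2 against the day 5 mice the median was -1.53 with 0 DEGs. For 32 of the 40 all 4 day 2 values lay above all 4 day 5 values, against 5.06% of all genes. Mki67, the proliferation marker Ki-67, was at 14.8, 23.8, 17.5 and 28.5 CPM at day 2 and at 1.75, 4.42, 2.93 and 4.72 CPM at day 5 (Log2FC -2.58, SE 0.47, FDR 0.00796). Top2a, the topoisomerase that untangles replicated DNA, was at 16.4, 24.5, 15 and 29.7 CPM at day 2 and at 2.10, 5.22, 3.12 and 5.24 CPM at day 5 (Log2FC -2.43, SE 0.43, FDR 0.00739). For both, BEC-R385 of batch 2 was highest, not D743.

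Bub1, a kinase of the spindle checkpoint, was at 1.97, 3.86, 1.57 and 2.95 CPM at day 2 and at 0.224, 0.694, 0.223 and 0.484 CPM at day 5 (Log2FC -2.68, SE 0.48, FDR 0.00739). Ccnb2, a mitotic cyclin, was at 3.28, 5.31, 2.76 and 4.03 CPM at day 2 and at 0.537, 0.512, 0.631 and 1.13 CPM at day 5 (Log2FC -2.34, SE 0.46, FDR 0.0102). These genes of mitosis were separated in all 8 mice. The 2 most abundant members of the list act in DNA synthesis and changed less. Pcna, the clamp of the replication fork, was at 58.0, 55.4, 36.5 and 41.6 CPM at day 2 and at 38.7, 39.8, 43.3 and 34.8 CPM at day 5 (Log2FC -0.28, SE 0.15, FDR 0.298). Rrm1, a subunit of ribonucleotide reductase, was at 21.2 to 35.5 CPM at day 2 and at 17.6 to 20.9 CPM at day 5 (Log2FC -0.56, SE 0.16, FDR 0.0715). The only listed member above 0 was Ccne1, a cyclin of entry into S phase, at a Log2FC of 0.24.

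Promoters of mitotic genes are known for CCAAT boxes, bound by NF-Y, and for the cell cycle homology region, bound by the complexes that switch these genes on late in the cycle. They are shown here because the cell cycle genes moved together. The promoters of Ccnb2 and Top2a, taken from RefSeq on build GRCm38.p6 and not from the build used for counting, are the 250 bases before the transcription start, 5′ to 3′. They lie at chr9:70421555-70421804 and chr11:99024190-99024439, both on the minus strand. Capitals mark CCAAT and TTTGAA, on either strand.
Ccnb2: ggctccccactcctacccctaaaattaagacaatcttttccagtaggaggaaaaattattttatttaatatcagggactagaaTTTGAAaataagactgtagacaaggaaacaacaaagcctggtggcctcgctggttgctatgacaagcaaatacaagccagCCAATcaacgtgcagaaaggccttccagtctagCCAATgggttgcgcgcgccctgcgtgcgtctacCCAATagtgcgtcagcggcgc
Top2a: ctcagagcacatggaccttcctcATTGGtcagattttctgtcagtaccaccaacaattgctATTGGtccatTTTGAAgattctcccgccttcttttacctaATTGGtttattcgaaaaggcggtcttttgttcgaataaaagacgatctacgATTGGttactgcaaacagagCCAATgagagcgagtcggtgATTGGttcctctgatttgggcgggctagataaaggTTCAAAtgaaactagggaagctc
In windows from 250 bases before to 50 after the start, CCAAT was present for 19 of the 22 lower cell cycle genes that had a promoter in the table and TTTGAA for 14 of them. The shares were 86.4% and 63.6%, and 76.5% and 44.1% over the 34 genes of the whole list with a promoter, against 42.6% and 14.1% of the 11563 genes tested that had a promoter there. A match describes the letters and is not a bound site.

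Interferon-stimulated genes showed a different relation of size to test. The list had a median of -1.63, the lowest of the lists in this fit but not in batch 1 or with the day 2 mice of batch 2, yet only Ifi27l2a and Bst2 of 34 tested passed (5.88%). For 25 of the 34 the 4 values of day 5 lay below the 4 of day 2, against 5.06% of all genes, and 31 of 34 were lower at an unadjusted p under 0.05, against 1457 of all 15648 genes. Without D743 the median was -1.54 with 1 DEG, and in the day 2 mice of batch 2 against day 5 it was -1.20 with 0. Ifi27l2a was at 32.9, 22.8, 7.76 and 5.76 CPM at day 2 and at 1.12, 3.11, 1.26 and 1.44 CPM at day 5 (Log2FC -3.15, SE 0.59, FDR 0.00856). Bst2, tetherin, which holds budding virus particles to the cell, was at 23.9, 38.4, 15.9 and 15.3 CPM at day 2 and at 2.82, 7.23, 3.15 and 6.82 CPM at day 5 (Log2FC -2.20, SE 0.50, FDR 0.022). In both genes the day 2 mice of batch 1 were above those of batch 2.

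Among members that did not pass, Ifitm3, which blocks virus entry and is among the most abundant, was at 62.1, 102, 34.1 and 41.3 CPM at day 2 and at 9.53, 26.4, 16 and 19.6 CPM at day 5 (Log2FC -1.72, SE 0.46, FDR 0.0526). Its values did not overlap. Irf7, Isg15 and Cxcl10, textbook interferon targets named after their values were seen, had Log2FC of -2.36, -2.14 and -2.08 at FDR 0.0512, 0.0938 and 0.16. Leaving out 1 mouse moved these Log2FC from -2.53 to -1.98, from -2.37 to -1.53 and from -2.47 to -1.46. The smallest falls were those without D740. The mouse D724 was the highest of the day 5 mice for Cxcl10, at 10.9 CPM against 0.895 to 2.92 CPM in the other 3, and at day 2 the range was 7.32 to 18.7 CPM.

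The response element of interferon-stimulated promoters, the ISRE, is bound by the complex that interferon receptors activate. The letters GAAA, any 2 bases and GAAA again, on either strand, were present for 16 of the 24 interferon-stimulated genes with a promoter in the table (66.7%), against 3.81% of all genes with one. The promoter of Bst2 from RefSeq, GRCm38.p6, chr8:71537473-71537722 on the minus strand, is given 5′ to 3′ with these letters and the bases between in capitals, where 2 overlapping matches run together.
Bst2: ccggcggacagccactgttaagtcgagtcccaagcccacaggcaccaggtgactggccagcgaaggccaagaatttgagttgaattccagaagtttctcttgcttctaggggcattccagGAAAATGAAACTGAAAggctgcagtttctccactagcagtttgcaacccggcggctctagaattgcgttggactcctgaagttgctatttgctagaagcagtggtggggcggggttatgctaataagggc
For the cell cycle genes the same letters were present for 2 of 34.

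Of 19 antigen presentation genes tested 0 were DEGs, the median Log2FC was -1.34, and 13 did not overlap in the direction of lower values at day 5, against 5.06% of all genes. B2m, the light chain of class I molecules, was at 245, 370, 253 and 291 CPM at day 2 and at 108, 158, 136 and 190 CPM at day 5 (Log2FC -0.95, SE 0.45, FDR 0.265). H2-D1, a class I heavy chain, was at 144 to 253 CPM and at 49.0 to 124 CPM (Log2FC -1.21, FDR 0.235), and reads of class I genes are divided among similar copies. Cd74, the invariant chain of class II molecules, was named after its values were seen and was at 31.2, 49.9, 54.1 and 62.8 CPM at day 2 and at 5.59, 42.7, 14.9 and 13.9 CPM at day 5 (FDR 0.28), with D724 within the day 2 range.

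Cytokines and their receptors fell in part. Of 29 tested genes of 33 listed, 4 were lower at day 5 (13.8%) and 0 higher, with a median of -1.45, or -1.39 and 1 DEG without D743. Tnf, the cytokine TNF, was at 1.59, 4.76, 0.474 and 1.08 CPM at day 2 and at 0.0447, 0.0365, 0.0371 and 0.305 CPM at day 5 (Log2FC -3.69, SE 0.80, FDR 0.0185). Ccr1, a chemokine receptor of monocytes and neutrophils, was at 7.40, 4.46, 1.54 and 3.05 CPM at day 2 and at 0.447, 0.475, 0.594 and 0.538 CPM at day 5 (Log2FC -2.79, SE 0.47, FDR 0.00739). Ccl12, a ligand of CCR2, was at 17.2, 10.9, 2.46 and 7.39 CPM at day 2 and at 0.403, 2.08, 0.668 and 1.00 CPM at day 5 (Log2FC -2.98, SE 0.72, FDR 0.0297). In these 3 genes D740 or D743 was highest and BEC-B544 lowest of the day 2 mice. Tnf was at a Log2FC of -2.82 and no DEG without D743, and at -5.79 without D755.

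Il1rn, the antagonist of the interleukin-1 receptor, was at 5.25, 13.1, 0.444 and 1.77 CPM at day 2 and at 0.134, 0.950, 0.371 and 0.251 CPM at day 5 (Log2FC -3.68, SE 0.90, FDR 0.0314), with BEC-B544 within the day 5 range. Without D743 its Log2FC was -2.55 and it was no DEG. Its agonist Il1b, named after its values were seen, was at 7.59, 9.81, 0.741 and 1.18 CPM at day 2 and at 0.0895, 0.438, 0.816 and 0.861 CPM at day 5 (Log2FC -2.76, SE 0.74, FDR 0.0504). In batch 1 alone, with D743, it passed (Log2FC -3.91, FDR 0.00982), and over both batches its Log2FC was -1.77 without D743 and -3.35 without D755. Ccl2, the main ligand of CCR2 and named in the same way, had a Log2FC of -2.54 (SE 0.80, FDR 0.0916). The most abundant members, the neuronal chemokine Cx3cl1 and Cxcl14, had Log2FC of 0.22 and 0.26 and did not pass.

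Of 27 genes of NF-kB and Toll-like receptor signalling 3 were lower at day 5 (11.1%) and 0 higher, with a median of -0.80, or -0.64 and 0 DEGs without D743. Tlr13, a sensor of bacterial ribosomal RNA, was at 17.3, 23.6, 10.3 and 14.5 CPM at day 2 and at 2.95, 4.90, 4.08 and 6.55 CPM at day 5 (Log2FC -1.77, SE 0.42, FDR 0.0258). Irak3, an inhibitor of Toll-like receptor signalling, was at 4.17, 12.3, 1.36 and 2.19 CPM at day 2 and at 0.850, 0.804, 0.890 and 2.15 CPM at day 5 (Log2FC -1.97, SE 0.50, FDR 0.0382). Cd14, the co-receptor for endotoxin, was at 25, 27.4, 6.99 and 9.54 CPM at day 2 and at 3.18, 3.62, 5.27 and 8.70 CPM at day 5 (Log2FC -1.61, SE 0.41, FDR 0.043). Without D743 the Log2FC of Irak3 was -0.95 and it was no DEG, and without D755 it was -2.58. For Irak3 and Cd14 BEC-B544 was within the range of day 5 and BEC-R385 just above it. The subunit gene Nfkb1 and the inhibitor gene Nfkbia had Log2FC of -0.49 and -0.79 and did not pass.

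Complement genes fell at the levels of receptors, a protease and factor B. Of 19 tested of 20 listed, 4 were lower (21.1%) and 0 higher, with a median of -1.05, or -0.81 and 1 DEG without D743. C3ar1, the receptor for the C3a fragment, was at 26.9, 70.7, 19.5 and 27.3 CPM at day 2 and at 2.19, 5.26, 4.82 and 13.5 CPM at day 5 (Log2FC -2.35, SE 0.57, FDR 0.031). C5ar1, the receptor for C5a, was at 5.81, 13.5, 3.17 and 3.75 CPM at day 2 and at 0.895, 1.72, 0.779 and 1.70 CPM at day 5 (Log2FC -2.36, SE 0.41, FDR 0.00739). Cfb, factor B of the alternative pathway, was at 14.1, 45.3, 7.17 and 10.1 CPM at day 2 and at 0.671, 4.93, 1.56 and 1.36 CPM at day 5 (Log2FC -3.32, SE 0.79, FDR 0.0285). All 3 were separated between the days. Without D743 Cfb was at a Log2FC of -2.57 and no DEG and C5ar1 at -1.75, and without D755 C3ar1 was at -3.15.

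C1ra, a protease of the C1 complex, was at 9.36 to 33.4 CPM at day 2 and at 2.11 to 5.19 CPM at day 5 (Log2FC -2.36, SE 0.53, FDR 0.0209). C3 itself, named after its values were seen, was at 116, 353, 31.2 and 81.0 CPM at day 2 and at 5.50, 18.8, 14.5 and 55.7 CPM at day 5 (Log2FC -2.27, SE 0.89, FDR 0.175), and D755 overlapped with day 2. Its Log2FC was -1.31 without D743 and -3.49 without D755. The abundant C4b was at 155 to 262 CPM at day 2 and at 54.4 to 156 CPM at day 5 (FDR 0.2). Clu, clusterin, had a Log2FC of -0.07.

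Acute phase and STAT3 target genes had 5 DEGs among 19 tested (26.3%), all lower at day 5, with a median of -1.31, or -0.91 and 2 DEGs without D743. Reactive astrocyte genes, a list that shares Timp1, Serpina3n, Lcn2 and Osmr with the former, had 5 among 30 (16.7%), with a median of -1.30, or -0.83 and 2 DEGs without D743. Serpina3n, a secreted protease inhibitor of reactive astrocytes, was at 271, 840, 238 and 515 CPM at day 2 and at 76.7, 157, 76.7 and 131 CPM at day 5 (Log2FC -2.07, SE 0.39, FDR 0.0086). Timp1, an inhibitor of matrix metalloproteinases, was at 13.2, 114, 8.56 and 22.1 CPM at day 2 and at 0.447, 3.73, 1.30 and 3.43 CPM at day 5 (Log2FC -3.99, SE 0.76, FDR 0.0086). Socs3, the feedback inhibitor that STAT3 induces, was at 23.4, 22.2, 2.90 and 11.5 CPM at day 2 and at 1.03, 3.84, 2.11 and 3.07 CPM at day 5 (Log2FC -2.49, SE 0.54, FDR 0.0184). For Serpina3n and Timp1 the days did not overlap, and for Socs3 BEC-B544 was within the range of day 5. Timp1 was at a Log2FC of -2.68 and still a DEG without D743, and Socs3 at -1.87 and no DEG without D740.

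Cebpd, a transcription factor of the acute phase, was at 14.1 to 41.1 CPM at day 2 and at 11 to 18.5 CPM at day 5 (Log2FC -0.96, SE 0.25, FDR 0.0481). Ptx3, a pentraxin, was at 2.44, 28.3, 3.73 and 11.5 CPM at day 2 and at 0.761, 3.29, 0.890 and 2.26 CPM at day 5 (Log2FC -2.63, SE 0.59, FDR 0.0209), and D740 was below D724. Without D743 its Log2FC was -1.77 and it was no DEG. Aspg, an asparaginase listed among reactive astrocyte genes, was at 4.54 to 11.1 CPM at day 2 and at 1.66 to 3.61 CPM at day 5 (Log2FC -1.42, SE 0.36, FDR 0.0421). Gfap, the astrocyte intermediate filament, was at 1485, 3536, 1427 and 2421 CPM at day 2 and at 531, 945, 763 and 1517 CPM at day 5 (Log2FC -1.18, SE 0.38, FDR 0.101). D755 overlapped with day 2, and Gfap did not pass. Mt1, metallothionein, was at 320, 326, 140 and 186 CPM at day 2 and at 142, 173, 211 and 195 CPM at day 5 (FDR 0.414), so that only the batch 1 mice of day 2 were above all 4 of day 5.

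**Figure D3:**
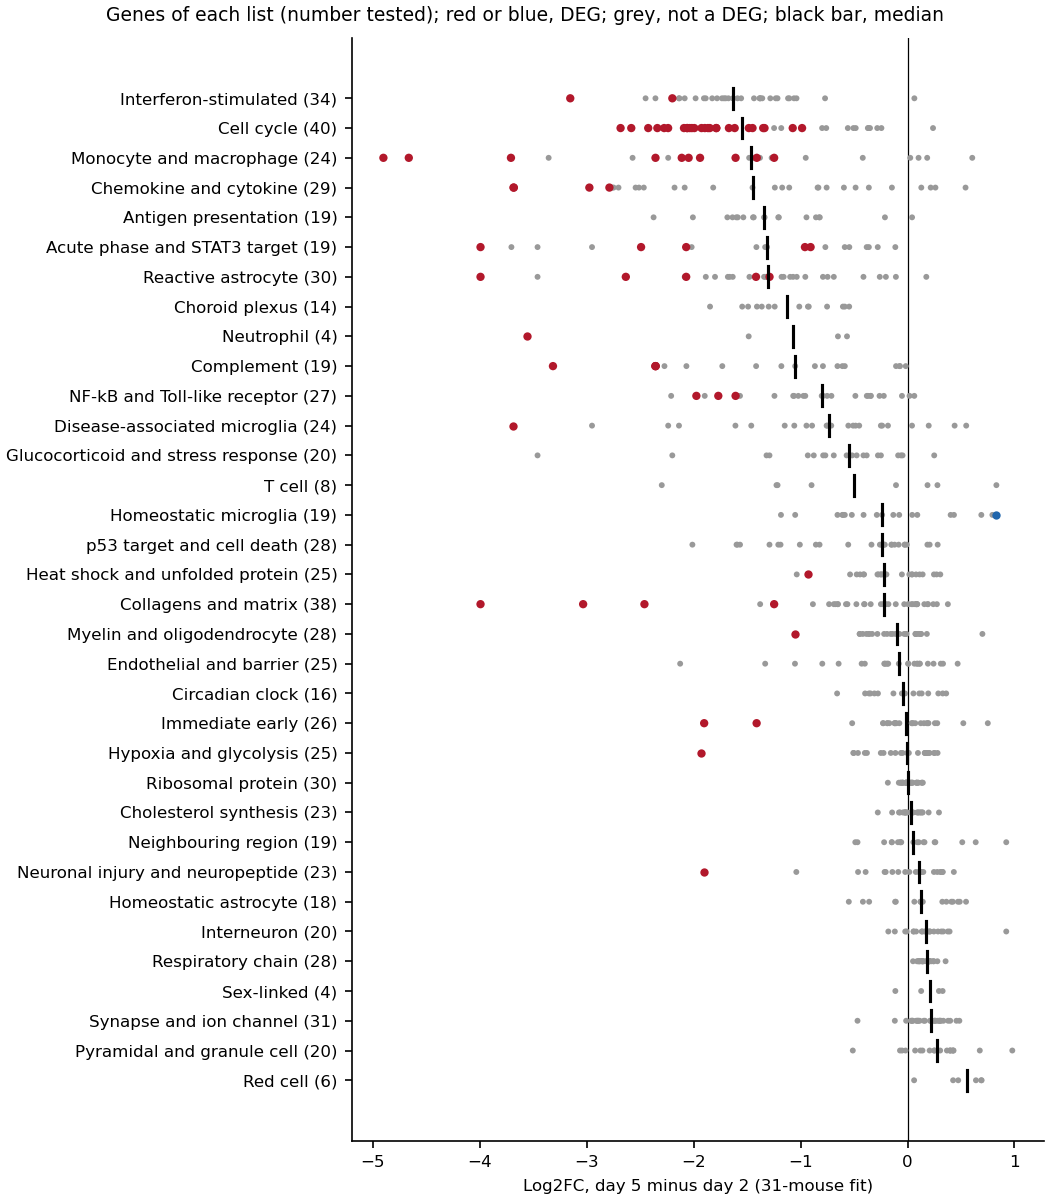
Each row is a list of genes with the number tested, and each point a gene at its Log2FC, day 5 minus day 2 (x axis). Red points are DEGs lower at day 5, the blue point is P2ry12, and black bars are medians, from -1.63 for interferon-stimulated genes to 0.56 for red cell genes.

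Homeostatic microglia genes had a median of -0.24 over 19 tested, with 0 lower and 1 higher. P2ry12, the purinergic receptor that resting microglia use to sense damage and that falls when they are activated, was at 32.9, 16.1, 29.5 and 33.4 CPM at day 2 and at 48.7, 44.2, 47.5 and 56.8 CPM at day 5 (Log2FC 0.83, SE 0.18, FDR 0.0185). It was lowest in D743 and higher in every day 5 mouse than in any day 2 mouse. Its Log2FC was 0.65 without D743, and it was then no DEG. Tmem119, another microglial marker, moved the other way without passing, at 47.8 to 59.6 CPM at day 2 and at 28.1 to 47.0 CPM at day 5 (Log2FC -0.60, SE 0.25, FDR 0.199). Cx3cr1 was at 107 to 149 CPM and at 71.8 to 130 CPM (FDR 0.343).

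Among disease-associated microglia genes, a set that microglia raise in injury and degeneration, only Msr1 of 24 was a DEG (4.17%), and the median was -0.73, or -0.48 without D743. Ctsb, cathepsin B, was at 695.9 to 1078 CPM at day 2 and at 583 to 694 CPM at day 5 (Log2FC -0.45, FDR 0.199). Apoe had a Log2FC of 0.55 (SE 0.20, FDR 0.142), with values of 1942 and 2498 CPM in D745 and D755 and of 1173 to 1480 CPM in the other 6 mice.

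The 20 higher DEGs ranged up to a Log2FC of 1.92. Lag3, an inhibitory receptor of T cells that microglia and neurons transcribe as well, was at 6.65, 2.42, 4.0 and 3.99 CPM at day 2 and at 9.49, 10.6, 15.8 and 24.1 CPM at day 5 (Log2FC 1.92, SE 0.41, FDR 0.0182). T cell genes gave 0 DEGs, as above, and Cd8a was at most 1.35 CPM. Bcan, brevican, a proteoglycan of the matrix around synapses made by astrocytes and oligodendrocyte precursors, was at 156, 87.3, 171 and 125 CPM at day 2 and at 219, 191, 260 and 284 CPM at day 5 (Log2FC 0.85, SE 0.15, FDR 0.00739). Gucy2e, a membrane guanylate cyclase, was at 3.75, 2.42, 4.09 and 2.74 CPM at day 2 and at 5.68, 7.49, 5.86 and 5.72 CPM at day 5 (Log2FC 0.92, SE 0.16, FDR 0.00739). For Lag3, Bcan and Gucy2e D743 had the lowest value of all 8 mice.

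Gdf10, a secreted factor of the TGF-beta family, was at 6.71 to 9.93 CPM at day 2 and at 12.9 to 20.4 CPM at day 5 (Log2FC 1.07, SE 0.25, FDR 0.0237). Kcnj14, an inwardly rectifying potassium channel, was at 0.849 to 1.55 CPM and at 2.28 to 3.87 CPM (Log2FC 1.45, SE 0.27, FDR 0.00856). Nnat, neuronatin, an imprinted gene of the endoplasmic reticulum, was at 129 to 171 CPM and at 210 to 302 CPM (Log2FC 0.86, SE 0.20, FDR 0.0256). The remaining named rises were Gm14569 at 1.13, Akr1c14, a steroid-metabolizing reductase, at 1.06, and Fam163a at 0.79.

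The mitochondrially encoded ATP8, a subunit of ATP synthase, was at 423, 663, 415 and 511 CPM at day 2 and at 867, 724.04, 819 and 1510 CPM at day 5 (Log2FC 0.97, SE 0.26, FDR 0.0484). ND6, a subunit of complex I, was at 20.1 to 29.9 CPM and at 35.9 to 44.0 CPM (Log2FC 0.79, SE 0.20, FDR 0.041). The share of all counts from the 13 protein-coding mitochondrial genes moved with them, at 6.21%, 7.28%, 5.31% and 5.42% at day 2 and at 7.91%, 7.03%, 7.97% and 7.64% at day 5, and its part in both results was not tested. The 28 respiratory chain genes listed had a median of 0.18 and 0 DEGs, with a median of -0.10 in batch 1 and of 0.35 with the day 2 mice of batch 2. In batch 1 alone neither gene passed (FDR 0.311 and 0.263).

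Other lists held 1 to 4 DEGs and had medians near 0. Of 38 tested collagen and matrix genes 4 were lower (10.5%), among them Timp1, Tgfbi and Fn1, while the median was -0.22, or -0.09 with 1 DEG without D743, and 10 were lower at an unadjusted p under 0.05, against 1457 of all 15648 genes. Tgfbi, a matrix protein that macrophages secrete, was at 27.6, 174, 27.6 and 47.7 CPM at day 2 and at 3.36, 13.5, 5.08 and 10.6 CPM at day 5 (Log2FC -3.03, SE 0.59, FDR 0.00977). Without D743 its Log2FC was -2.16 and it was no DEG. The abundant Sparc had a Log2FC of 0.09.

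Of 26 immediate early genes 2 were lower (7.69%), Atf3, at 2.52 to 7.54 CPM against 0.965 to 2.22 CPM, and Ier3, at 2.22 to 9.51 CPM against 1.75 to 2.94 CPM (Log2FC -1.90 and -1.41, FDR 0.0141 and 0.0188). Atf3, a stress-induced transcription factor of injured neurons and of macrophages, was also the only DEG of 23 tested genes of neuronal injury and neuropeptides. Hmox1, the heme-degrading enzyme, was at 19, 105, 9.92 and 25.9 CPM at day 2 and at 4.79, 19.6, 6.57 and 11 CPM at day 5 (Log2FC -1.93, SE 0.50, FDR 0.0434), and the days overlapped. Without D743 its Log2FC was -0.90 and it was no DEG. Hmox1 was the only DEG of 25 hypoxia and glycolysis genes. Trf, transferrin, was at 533, 1241, 668 and 755.3 CPM at day 2 and at 336, 392, 327 and 492 CPM at day 5 (Log2FC -1.05, SE 0.27, FDR 0.0451). It was the only DEG of 28 myelin and oligodendrocyte genes, of which Mbp had a Log2FC of -0.09. Sdf2l1, a chaperone of the unfolded protein response, fell by 0.93 on the log2 scale (FDR 0.0234). It was the only DEG of 25 heat shock and unfolded protein genes, of which 11 were lower and 2 higher at an unadjusted p under 0.05, against 1457 and 1465 of all 15648 genes.

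Neuronal lists held 0 DEGs. The median Log2FC was 0.28 over 20 pyramidal and granule cell genes, 0.18 over 20 interneuron genes and 0.22 over 31 synapse and channel genes. Camk2a was at 4220, 4165, 3946 and 3971 CPM at day 2 and at 6184, 5621, 4726 and 5209 CPM at day 5 (Log2FC 0.40, SE 0.19, FDR 0.258). Nrgn, neurogranin, of the postsynapse, had a Log2FC of 0.43 (FDR 0.193), and Snap25, of the presynapse, 0.28 (FDR 0.324). Slc1a2, the glutamate transporter of astrocytes, was at 2772 to 3311 CPM at day 2 and at 3606 to 4685 CPM at day 5 (Log2FC 0.47, SE 0.16, FDR 0.108), and Aqp4 had a Log2FC of -0.36. The groups of Camk2a, Nrgn and Slc1a2 did not overlap, but none of the 3 passed. Lists of ribosomal proteins, cholesterol synthesis, the circadian clock and neighbouring brain regions had medians of 0.00, 0.03, -0.04 and 0.05 and 0 DEGs. The ribosomal median was -0.45 in batch 1 and 0.41 with the day 2 mice of batch 2. Those of homeostatic astrocytes, endothelium, p53 targets and glucocorticoid response had medians of 0.13, -0.08, -0.24 and -0.54 and 0 DEGs. At an unadjusted p under 0.05, 11 of 28 p53 and 7 of 20 glucocorticoid genes were lower and 0 higher. For homeostatic astrocytes 2 were lower and 7 higher, and for endothelium 3 and 0. Over all 15648 genes 1457 were lower and 1465 higher. In batch 1 the glucocorticoid median was -0.89, and the endothelial list had 3 lower DEGs and the p53 list 1. Red cell genes, which reflect blood left in the tissue, summed to 424 to 704 CPM at day 2 and 574 to 1142 CPM at day 5. Hba-a1, a globin gene, was at 300.4 CPM in D745 and at 66.1 to 135 CPM in the other 7 mice, and did not pass (FDR 0.229).

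Since all day 5 mice belonged to batch 1, the comparison was repeated with the 2 day 2 mice of that batch, D740 and D743, against the 4 day 5 mice. In a fit of the 23 mice of batch 1, 193 genes were lower at day 5 and 5 were higher, which is 1.23% and 0.032% of the genes tested. Both fits use the same 6 mice, so they are not independent, and all 243 DEGs of the first fit had the same sign in batch 1. The DEGs shared were 111 lower and 2 higher, the former 49.8% of the 223 and 57.5% of the 193. Without D743, which leaves 1 mouse at day 2 whose spread is assumed to be that of the other groups, the batch 1 fit gave 8 DEGs.

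**Figure D4:**
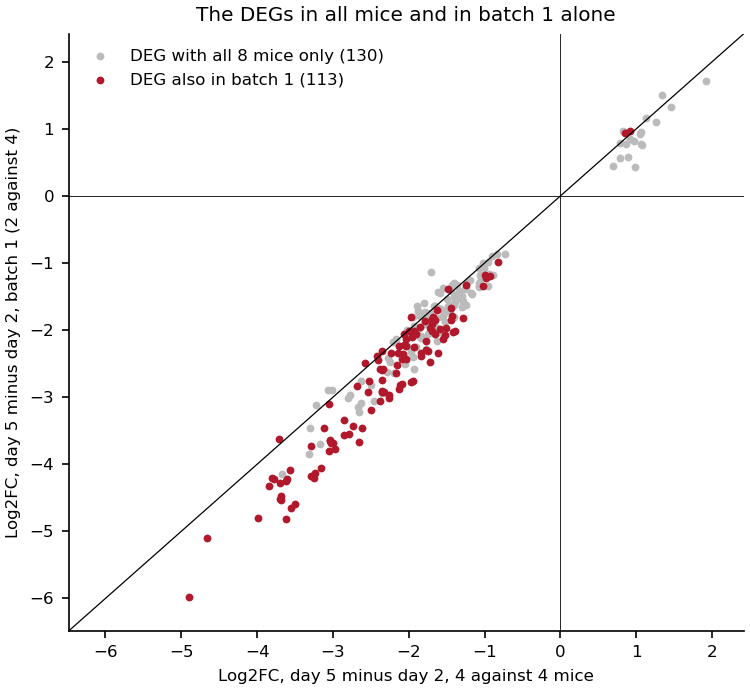
Each point is 1 of the 243 DEGs, with its Log2FC over 4 against 4 mice on the x axis and over the 2 day 2 mice of batch 1 against the 4 day 5 mice on the y axis. All points keep their sign, most of the lower DEGs lie below the line of equal values, and 113 (red) are DEGs in both.

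The medians of the response lists stayed negative in batch 1, several of them lower, and counts moved in both directions. The cell cycle list went from 26 to 14 DEGs with a median of -1.64, and the monocyte and macrophage list from 10 to 8 with a median of -2.12. Cytokine and chemokine genes went from 4 to 8 (median -1.82), NF-kB and Toll-like receptor genes from 3 to 6 (median -1.08) and disease-associated microglia genes from 1 to 4 (median -1.10). Interferon-stimulated genes had 1 DEG, with a median of -1.85. For Ccr2 (Log2FC -3.62, FDR 0.00862), Chil3 (-5.09, FDR 0.00254), Ccr1 (-3.55, FDR 0.000588) and Mki67 (-2.49, FDR 0.0282) the call held. It was lost for 20 of the 53 DEGs named here, with the FDR between 0.0548 and 0.311. Among the lower ones these were Tgm1, Cfb, Bst2, Fcgr4, Ptx3, Hmox1, Atf3, Aspg, Trf and Cebpd. Among the higher ones they were Lag3, P2ry12, Kcnj14, Gdf10, Nnat, Gm14569, Akr1c14, Fam163a, ATP8 and ND6. Bcan (0.93, FDR 0.0441) and Gucy2e (0.96, FDR 0.0289) were the shared higher DEGs.

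The 2 day 2 mice of batch 2 against the 4 day 5 mice, a contrast in which batch and day cannot be told apart, gave 1 DEG, the pseudogene Zfp968-ps, named after its value was seen and higher at day 5, and 2033 genes at an unadjusted p under 0.05. The medians of the cell cycle and the monocyte and macrophage lists were -1.53 and -0.96 there.

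Levels at the later times show how far day 5 had come. The mean log2 CPM of the monocyte and macrophage list was 2.90 ± 0.71 (SD, n = 4) at day 2, 1.26 ± 0.56 (n = 4) at day 5 and 0.56 ± 0.26 (n = 4) at day 28. For cell cycle genes it was 2.60 ± 0.33, 1.20 ± 0.23 and 0.86 ± 0.17. For acute phase and STAT3 target genes it was 4.67 ± 0.73, 3.12 ± 0.57 and 2.10 ± 0.37, and for complement genes 4.97 ± 0.51, 3.67 ± 0.51 and 3.13 ± 0.40. Day 5 thus lay between day 2 and day 28 in the means of these 4 lists, and in each at least 1 day 5 mouse was within the range of day 28. These later levels are descriptions without a test, and the day 28 group held 2 mice of each batch.

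Day 8 held 3 control mice, of which D720 was far above the other 2. Its mean log2 CPM was 3.09 for monocyte and macrophage genes, against 0.999 and 1.50, and 5.57 for interferon-stimulated genes, against 1.25 and 3.71. Cd8a reached 9.73 CPM at that day. No course through day 8 was therefore drawn. At day 2 after the ovalbumin vector, 4 mice had 2.32 ± 0.14 for monocyte and macrophage genes and 1.89 ± 0.33 for cell cycle genes, and Ccr2 was at 4.04 to 9.29 CPM.

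**Figure D5:**
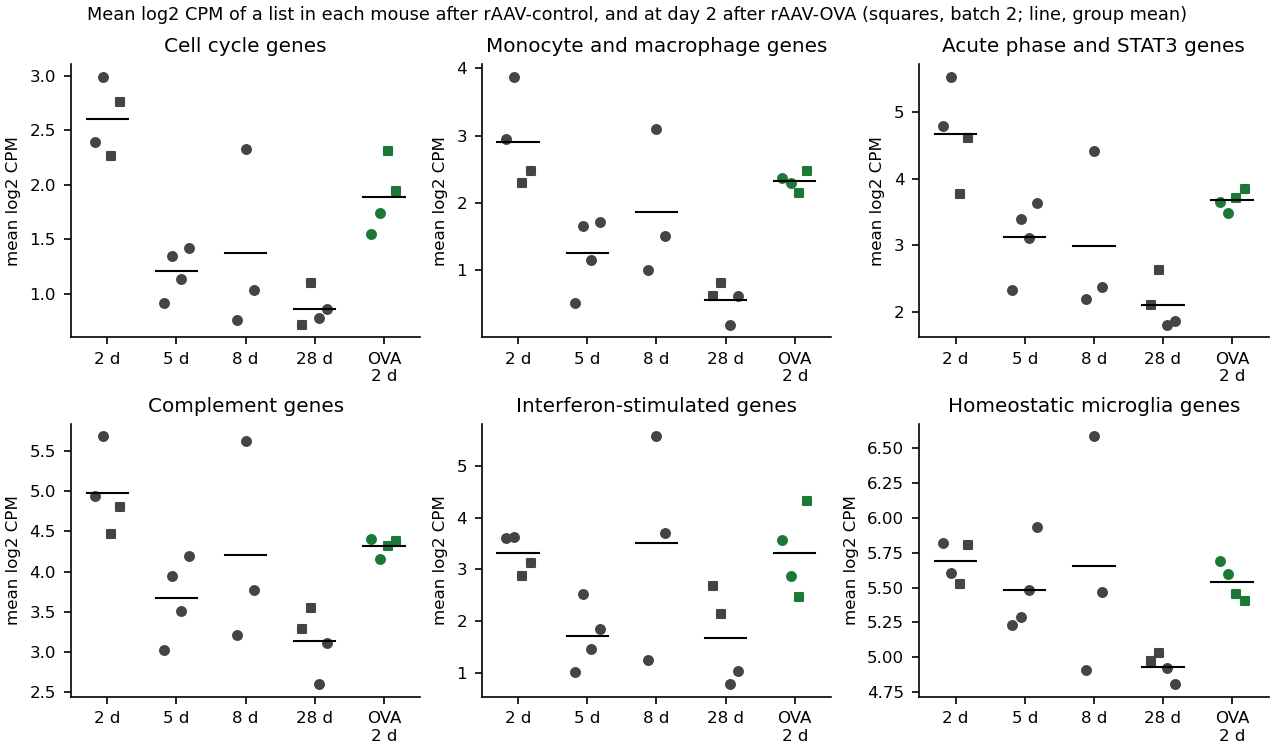
Each point is the mean log2 CPM of a list (y axis) in 1 mouse at 2, 5, 8 or 28 days after rAAV-control, or at 2 days after rAAV-OVA (x axis), with squares for batch 2 and a line for the group mean. Cell cycle genes are at 2.26 to 2.99 in the day 2 mice and at 0.918 to 1.42 in the day 5 mice, and 1 of 3 mice at day 8 stands high in every panel.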

How the data were processed

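Bulk RNA-seq libraries were made from the left hippocampus of 31 mice. The authors trimmed the reads with fastp, quantified transcripts with Salmon 1.8.0 against GENCODE mouse transcripts, summed them to genes and deposited estimated counts, which need not be whole numbers, for genes that reached 15 counts in 15 or more mice. Salmon divides reads shared by similar transcripts, so values of near-identical genes are uncertain. The submitters' processing notes also name DESeq2 1.36.0. The counts were used as deposited, and rounded only for the DESeq2 alternatives. Depth is given as the range of totals on each day, and low counts limit the precision of genes near 1 CPM.

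Counts were tested with the quasi-likelihood F-test of edgeR 4.0.16 (R 4.3.3) in 1 fit of all 31 mice and 8 groups, with 2 surrogate variables from sva 3.50.0 and TMM normalization, and the contrast day 5 minus day 2 of the control vector. The DEG limits were 0.05 for FDR and 0.66 for the size of Log2FC. The batch 1 fit used its 23 mice and no surrogate variables. CPM were computed from the same library sizes and not corrected for surrogate variables. Alternatives used limma 3.58.1, DESeq2 1.42.0, ashr 2.2.63, other covariates, filters and samples, and left out each mouse in turn. The procedure was tested on simulated data in which 200 genes were changed, without a batch effect or an outlying mouse. That test therefore cannot show how the fits behave where these are present.

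The named genes were the 12 DEGs with the lowest and the 12 with the highest Log2FC whose days did not overlap and whose higher mean reached 1 CPM, and in each of 34 lists up to 4 DEGs by Log2FC and the 2 genes with the highest CPM, with markers. A few genes that meet the rule are not reported here. Others are said to have been named after their values were seen. The groups compared and the lists were chosen with earlier results of these data known. No 2 libraries of a group agreed within sampling noise. There were 0 unused columns of values. Promoter sequences came from RefSeq on GRCm38.p6, whereas counting used a later build.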

Additional observations from a re-analysis of the deposited data

Results flagged for a closer look

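Of 186 sets of 4 values of a named gene or total within 1 day, 20 held a mouse far from the other 3 by Dixon's criterion, which chance meets in about 1 of 20 sets, and in 10 the far mouse was D743. At day 2 D743 was high in the macrophage genes Chil3 (11.2 CPM), Tgfbi (174 CPM) and C3ar1 (70.7 CPM), and in Hmox1 (105 CPM), Timp1 (114 CPM) and Csf3r (26.4 CPM). It was also high in Sirpb1a (2.51 CPM), Sirpb1c (8.45 CPM) and Zc3h12d (2.72 CPM), and low in the Y-linked Ddx3y (0.127 CPM). BEC-B544 was high in Fam163a (12 CPM) and BEC-R385 low in the choroid plexus gene Ttr (566 CPM).

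At day 5 D755 had the highest total (57407900 counts, to 6 digits) and was high in Tnf (0.305 CPM), Irak3 (2.15 CPM) and the cathepsin gene Ctsb (694 CPM). D724 was high in Gucy2e (7.49 CPM), the interferon-stimulated Ifi27l2a (3.11 CPM) and Ttr (3515 CPM). D745 was high in the globin gene Hba-a1 (300.4 CPM).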

How the results depend on the processing

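The number of DEGs moved with the model, from 243 to 570 with DESeq2's Wald test and 466 with ashr shrinkage. It was 138 with batch and 2 surrogate variables, and 86 when 15 counts were asked of all 8 mice. With all 31 mice it was 11 with no covariates and 2 with batch as covariate. With the day 2 mice of batch 2 it was 1. Nearer to 243 were 211 in the 8 mice alone with no covariates, 174 with limma voom and 325 with DESeq2's size factors. Leaving out 1 mouse gave 2 to 480, namely 2 without D723, 48 without D724, 70 without D743, 87 without D740 and 480 without D755. In batch 1 it moved from 198 to 479 with DESeq2, 327 with the 6 mice alone, 68 with 15 counts in each of them, 43 with all 31 mice and 35 with 2 surrogate variables. Leaving out 1 mouse gave 8 to 204 there, namely 8 without D743, 25 without D723, 47 without D724 and 43 without D745. With batch as covariate Chil3 was among the DEGs. With no covariates in the 31 mice they included Chil3, Gucy2e, Msr1, Ccr1, Cenpf, Atf5, Ccr2, C5ar1, Dpep2 and Ms4a4a. The cause of these shifts was not tested. Of 990 Log2FC of the named DEGs under the alternatives, 989 kept their direction, but the same mice had selected these genes. The exception was S100a8, at 1.17 with the batch 2 day 2 mice. In that setting Pcna (0.0035), Mt1 (0.15), Clu (0.078), Mbp (0.10) and Ddx3y (-0.11), none of them a DEG, also changed sign. So did Cd8a with limma voom (-0.29), and Sparc with batch (-0.11) and with batch and surrogate variables (-0.071). Leaving out 1 mouse moved Cd8a from -0.60 to 0.65, Ddx3y from -0.13 to 0.52, Clu from -0.19 to 0.045, Sparc from -0.056 to 0.24 and Mbp from -0.39 to 0.038. No paired analysis was possible because each mouse was sampled on 1 day and the labels tie no mouse of one day to a mouse of the other.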
